A study of Homo sapiens with 4 samples.

Results

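Genes of the BCL2 family were followed in total RNA of the prostate cancer lines LNCaP and C4-2. The members were the 10 genes BCL2, BCL2L1, MCL1, BAK1, BCL2L11, BID, BAD, BIK, BMF and BCL2L14, chosen by name from 22985 named genes. Each was represented by its transcript row with the most tags on the transcript's own strand, out of 43 rows for the 10 genes, and all 10 passed the filter on low counts that left 15975 genes for the test. LNCaP is an androgen-dependent line from a lymph node metastasis that the labels class as primary cancer. C4-2 descends from it through growth in castrated mice and is classed as castration-resistant (CRPC). Both lines were grown in RPMI medium with charcoal-stripped serum, which is depleted of steroids, and neither received another treatment in the labels. RNA was depleted of ribosomal RNA, and 2 libraries were sequenced per line. Nothing in the labels ties the libraries to separate cultures, so the p-values below speak of differences among these libraries only and may rest on technical spread.

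Proteins of the BCL2 family decide whether the outer membrane of the mitochondrion stays closed or is opened to release cytochrome c, which starts the caspase cascade. Guardians such as BCL2, BCL-XL (from BCL2L1) and MCL1 hold the pore-forming effectors BAK and BAX in check, and BH3-only proteins such as BIM (from BCL2L11), BID, BAD, BIK and BMF bind guardians or effectors through a short helix, the BH3 domain. In prostate cancer, BCL2 is best known for its association with survival after androgen withdrawal.

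The stored data of each sample bear the name of the other line. Groups here follow the sample titles and the cell line labels, and every direction would turn round if the stored names were right. The libraries labelled LNCaP held 58925680 and 70459588 sense tags of named genes, and the libraries labelled C4-2 held 163126630 and 119080520. Deposited RPKM values are tags per length of transcript relative to a library total. Sense tags were 31.0% and 35.7% of that total in LNCaP but 67.7% and 69.4% in C4-2, so a level relative to other genes and a level relative to the whole library give different pictures. Directions below are on the first scale, CPM (tag counts relative to the sense tags of the genes tested) after TMM scaling, which sets the typical gene near no change. With library totals as the scale the median log2 fold change of all genes moved from -0.01 to 1.0. Luminal prostate markers were high in every library. By the test used below, 7 of 8 were higher in C4-2, beside 40.2% of all tested genes, and FOLH1 was lower (log2 fold change -0.20). With library totals all 8 were higher, beside 73.1% of all genes. Their summed levels were 2386 and 2334 CPM in LNCaP against 3996 and 3955 CPM in C4-2, and their part in the results was not tested. Markers of other cell types summed to at most 0.203 CPM (4 basal genes), 1.53 CPM (6 neuroendocrine genes), 11.2 CPM (6 fibroblast genes), 3.66 CPM (7 immune genes) and 4.58 CPM (4 endothelial genes) in any library, and CHGB, COL1A2, CD3E and MS4A1 had no sense tag. In bulk RNA, fewer cells with a transcript and less of it per cell cannot be told apart.

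All 3 guardian genes and 3 of the 5 BH3-only genes were higher in C4-2, while BMF and BCL2L14 were lower. BCL2 had the largest rise among members, 3.23-fold, and BCL2L14 nearly vanished, 72.6-fold lower. BAK1 and BIK did not pass the test. Of the 10 members 6 were thus higher, where 40.2% of all tested genes were, and 2 were lower, where 39.7% were (edgeR quasi-likelihood test, Benjamini-Hochberg adjusted p under 0.05 over all genes). The 8 members called stood beside 80.0% of all genes called, so the number of calls was that of the background. With library totals 9 members were higher and 1 was lower, where 73.1% and 10.5% of all genes were and 83.6% were called in either direction. The libraries of the lines did not overlap for 9 members, as for 89.9% of all genes. A rise of at least 2-fold was seen for 1 member (11.7% of all genes) and a fall of that size for 1 (18.1%). The median log2 fold change over members was 0.35, against -0.01 over all genes.

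**Figure D1:**
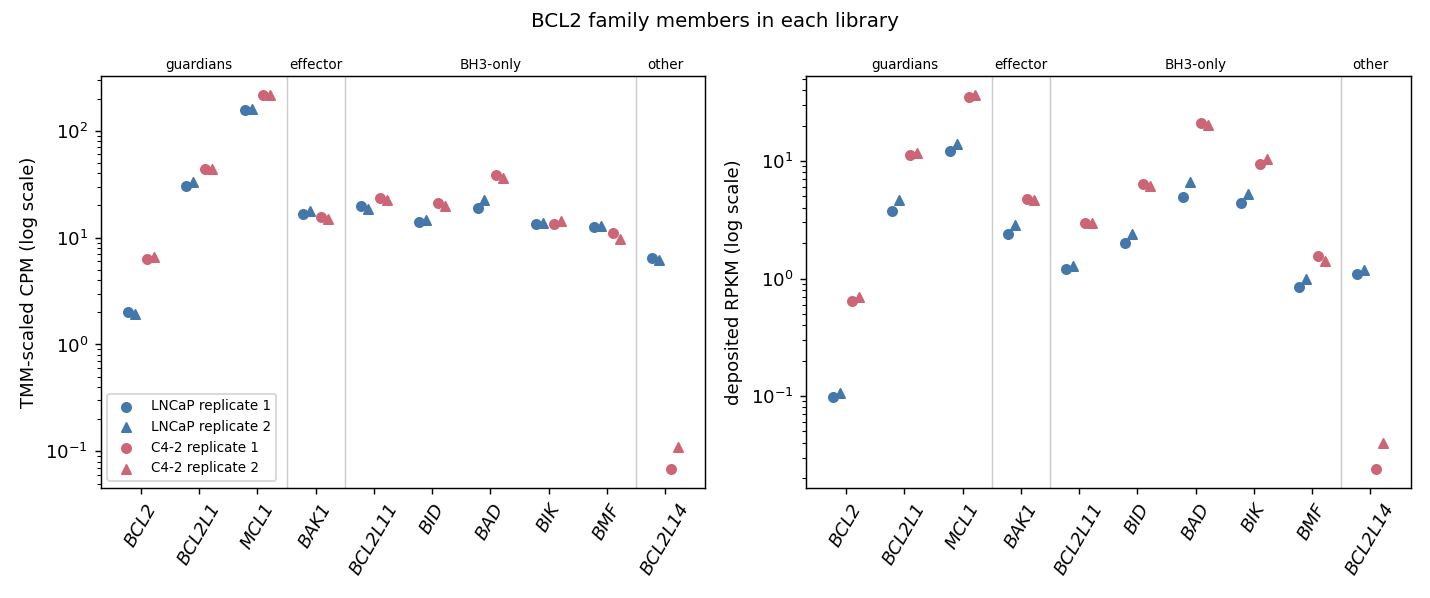
Levels of the 10 members in each library on log axes, as TMM-scaled CPM (left) and deposited RPKM (right), with circles and triangles for replicates 1 and 2. BCL2 lies near 2 CPM in LNCaP and above 6 CPM in C4-2, and BCL2L14 drops from above 6 CPM to at most 0.110 CPM. On the RPKM scale, which divides by library totals, the other 9 members lie higher in C4-2; on the CPM scale BAK1 and BMF lie lower and BIK overlaps.

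Among the guardians, BCL2 (hg19 chromosome 18, 60790579 to 60986613, minus strand) is the founding member, first found at a chromosome breakpoint of follicular lymphoma. It had 122 and 137 tags in the LNCaP libraries and 1007 and 774 in the C4-2 libraries. These made 2.03 and 1.94 CPM against 6.27 and 6.56 CPM, so the C4-2 libraries were high and the groups lay far apart. The log2 fold change was 1.69 ± 0.11 (SE, edgeR adjusted p = 2.19e-06), higher than that of 96.3% of all tested genes. BCL2 was still a weak transcript, with an average CPM above that of 30.8% of tested genes only. A shorter row of 1206 exonic bases, for the transcript that ends within the large intron, had 17 and 34 tags in LNCaP and 244 and 186 in C4-2. That was 13.9% and 24.8% of the count of the main row against 24.2% and 24.0%, so only LNCaP replicate 1, with its 17 tags, stood apart.

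The gene for BCL-XL, BCL2L1 (chromosome 20, 30252261 to 30310656, minus strand), had 30.3 and 33.4 CPM in LNCaP and 43.4 and 43.6 CPM in C4-2. The groups did not overlap, and the rise was small at 1.37-fold (log2 fold change 0.45 ± 0.06 SE, edgeR adjusted p = 0.000186). MCL1 (chromosome 1, 150547027 to 150552214, minus strand), a short-lived guardian that is broken down rapidly by the proteasome, had 157 and 160 CPM against 215 and 217 CPM. Its replicates lay within a few CPM of each other, and the rise was 1.36-fold (0.45 ± 0.04, edgeR adjusted p = 1.86e-05). MCL1 was the most abundant member, with an average CPM above that of 94.1% of tested genes.

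Both BCL2L1 and MCL1 are spliced into a long form that protects cells and a short form that promotes death, and the deposited rows allow the stretch found in the long form only to be counted. In BCL2L1 it is the end of the first coding exon, 189 coding bases (chr20:30309458-30309646), which encode the BH1 domain and the start of BH2. In MCL1 it is the whole of coding exon 2, 248 bases (chr1:150550720-150550967). In the annotation used (GENCODE on GRCh37) these lengths equal the difference in exonic length between the long and short rows, 189 and 248 bases. The stretches are shown because the counts below rest on them, on the minus strand of GRCh37, in lower case. In BCL2L1 (chr20:30309456-30309646) the capitals mark the donor GT used by the short form, at the start, and the intron GT used by the long form, at the end. In MCL1 (chr1:150550718-150550969) they mark the intron bases on either side of exon 2.
BCL2L1: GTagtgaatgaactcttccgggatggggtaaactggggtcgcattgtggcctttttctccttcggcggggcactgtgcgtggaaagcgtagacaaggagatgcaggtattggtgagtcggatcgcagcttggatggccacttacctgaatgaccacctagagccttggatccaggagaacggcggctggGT
MCL1: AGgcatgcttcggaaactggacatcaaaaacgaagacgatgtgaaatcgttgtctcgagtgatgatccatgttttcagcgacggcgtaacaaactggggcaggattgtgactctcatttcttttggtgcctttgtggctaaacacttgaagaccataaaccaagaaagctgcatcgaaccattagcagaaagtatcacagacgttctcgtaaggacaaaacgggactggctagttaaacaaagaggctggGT

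Tags in the BCL2L1 stretch numbered 194 of 1823 and 274 of 2361 in LNCaP and 801 of 6973 and 546 of 5145 in C4-2. These were 10.6% (Wilson 95% interval 9.31% to 12.1%) and 11.6% (10.4% to 13.0%) of the long row's tags in LNCaP, and 11.5% (10.8% to 12.3%) and 10.6% (9.80% to 11.5%) in C4-2. The lines overlapped, at 11.12% ± 0.68 (SD, n = 2) and 11.05% ± 0.62, so a shift between the long and the short form was not detectable at this depth. For MCL1 exon 2 the counts were 1030 of 9462, 1276 of 11316, 3862 of 34619 and 2905 of 25582 tags. The shares of 10.9% (10.3% to 11.5%) and 11.3% (10.7% to 11.9%) in LNCaP overlapped those of 11.2% (10.8% to 11.5%) and 11.4% (10.97% to 11.8%) in C4-2. Each stretch held more tags than its share of the length, 7.39% for BCL2L1 and 6.07% for MCL1, in all 4 libraries. Short-form transcripts, which lack the stretch, would lower its share, but uneven coverage along the transcript also sets it, so these shares are not the proportion of long form. Intervals cover counting error only.

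**Figure D2:**
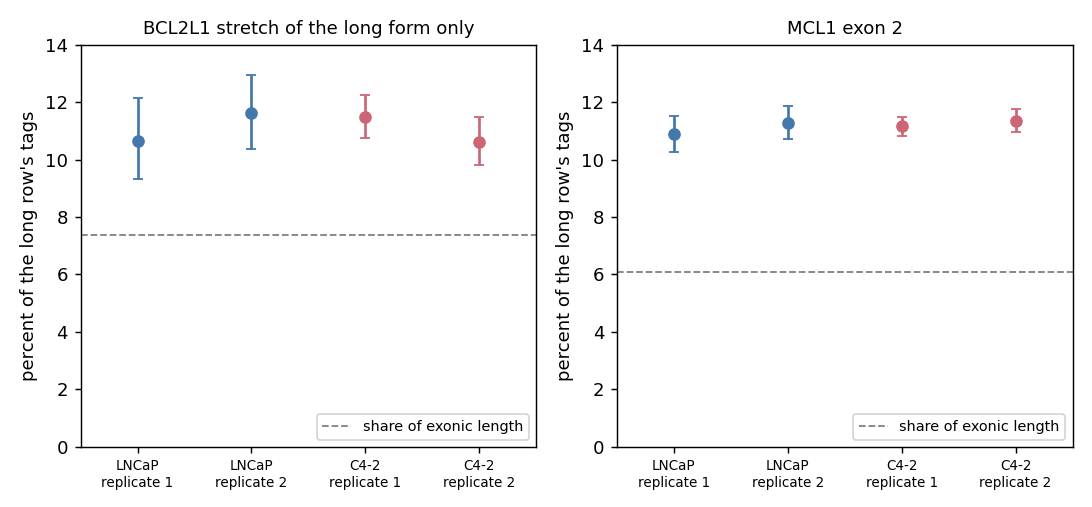
Share of the long row's tags that lie in the stretch found in the long form only, for BCL2L1 (left) and MCL1 (right), by library. Points carry Wilson 95% intervals and the dashed line is the share of exonic length; shares of 10.6% to 11.6% and 10.9% to 11.4% overlap between the lines.

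BAK1, the gene for the pore-forming effector BAK (chromosome 6, 33540323 to 33548070, minus strand), had 16.6 and 17.6 CPM in LNCaP and 15.6 and 14.9 CPM in C4-2. The C4-2 libraries were slightly lower without overlap, but the difference missed the threshold (log2 fold change -0.16, 95% interval -0.31 to -0.0088, edgeR adjusted p = 0.0508). It passed with DESeq2 size factors (adjusted p = 0.0422), with a stricter filter (0.00389) and without LNCaP replicate 1 (0.0101), and stood at 0.84 with library totals. Within each library BAK1 lost ground to BCL2L1 and MCL1. The ratio of BCL2L1 to BAK1 in RPKM was 1.57 and 1.63 in LNCaP and 2.38 and 2.501 in C4-2, and that of MCL1 to BAK1 was 5.10 and 4.88 against 7.42 and 7.79. Neither ratio overlapped between the lines, and ratios within a library do not depend on the scaling between libraries. Such lack of overlap was common, seen in CPM for 89.9% of all tested genes.

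BAD, a BH3-only protein that binds BCL2 and BCL-XL and is held inactive when phosphorylated by survival kinases, showed the largest rise of the 5 BH3-only members (chromosome 11, 64037300 to 64052176, minus strand). It had 1148 and 1602 tags in LNCaP and 6242 and 4227 in C4-2. These made 19.1 and 22.6 CPM against 38.9 and 35.8 CPM. The C4-2 libraries lay clear of the LNCaP libraries, with a rise of 1.79-fold (log2 fold change 0.84 ± 0.09 SE, edgeR adjusted p = 3.3e-05). BID, which caspase-8 cleaves to link death receptors to mitochondria (chromosome 22, 18216906 to 18257261, minus strand), had 13.9 and 14.7 CPM against 21.2 and 19.7 CPM. Its rise was 1.43-fold (0.52 ± 0.07, adjusted p = 0.000155 in edgeR). Opposite-strand tags at BID were 5.64% of its tags in LNCaP and 5.28% in C4-2. The microRNA gene MIR3198-1 overlaps the span of BID by 80 bases on the same strand.

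BCL2L11, the gene for BIM, which can bind every guardian and also activates the effectors (chromosome 2, 111878491 to 111926022, plus strand), had 19.8 and 18.6 CPM in LNCaP and 23.2 and 22.4 CPM in C4-2. The rise was the smallest of the called members, 1.19-fold (0.25 ± 0.06, edgeR adjusted p = 0.00523), and the call ended with the stricter filter (0.11, adjusted p = 0.116). Of the 18 rows of BCL2L11, those that reach the last exon held at least 88.3% of the main row's tags in each library. Rows that end early (722 and 950 exonic bases) held 12.3% and 12.4%, and 12.1% and 12.6%, of the main count in LNCaP, against 9.29% and 10.4%, and 9.29% and 10.6%, in C4-2. BIK, an endoplasmic reticulum BH3-only gene (chromosome 22, 43506754 to 43525718, plus strand), had 13.3 and 13.8 CPM against 13.4 and 14.4 CPM. The lines overlapped, and the log2 fold change of 0.03 had a 95% interval of -0.13 to 0.20 (edgeR adjusted p = 0.68). BIK passed at 1.04 with library totals.

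BMF, a BH3-only gene whose protein is tethered to actin-bound myosin until it is released (chromosome 15, 40380092 to 40401075, minus strand), was the only called BH3-only member that fell. It had 12.6 and 12.9 CPM in LNCaP and 10.96 and 9.64 CPM in C4-2, with the C4-2 libraries lower and further apart. The change was -0.30 ± 0.08 on the log2 scale (edgeR adjusted p = 0.00984). The call ended without C4-2 replicate 2 (-0.21, adjusted p = 0.096), and BMF stood at 0.70 with library totals.

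BCL2L14, which encodes the relative BCL-G (chromosome 12, 12223878 to 12252627, plus strand), had 391 and 440 tags in LNCaP and 11 and 13 in the deeper C4-2 libraries. These were 6.51 and 6.22 CPM against 0.0685 and 0.110 CPM. The C4-2 libraries were close to empty, and the log2 fold change was -6.18 ± 0.20 (SE, 95% interval -6.65 to -5.72, edgeR adjusted p = 7.86e-08), lower than that of all but 1.05% of tested genes. It stood at -5.18 with library totals and was the only member that fell on both scales. All 3 of its rows had at most 13 tags in either C4-2 library and at least 348 in either LNCaP library. The rows span nearly the same bases, so they are not separate measurements of the fall. On the opposite strand lay 6 and 15 tags in LNCaP and 1 and 4 in C4-2.

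**Figure D3:**
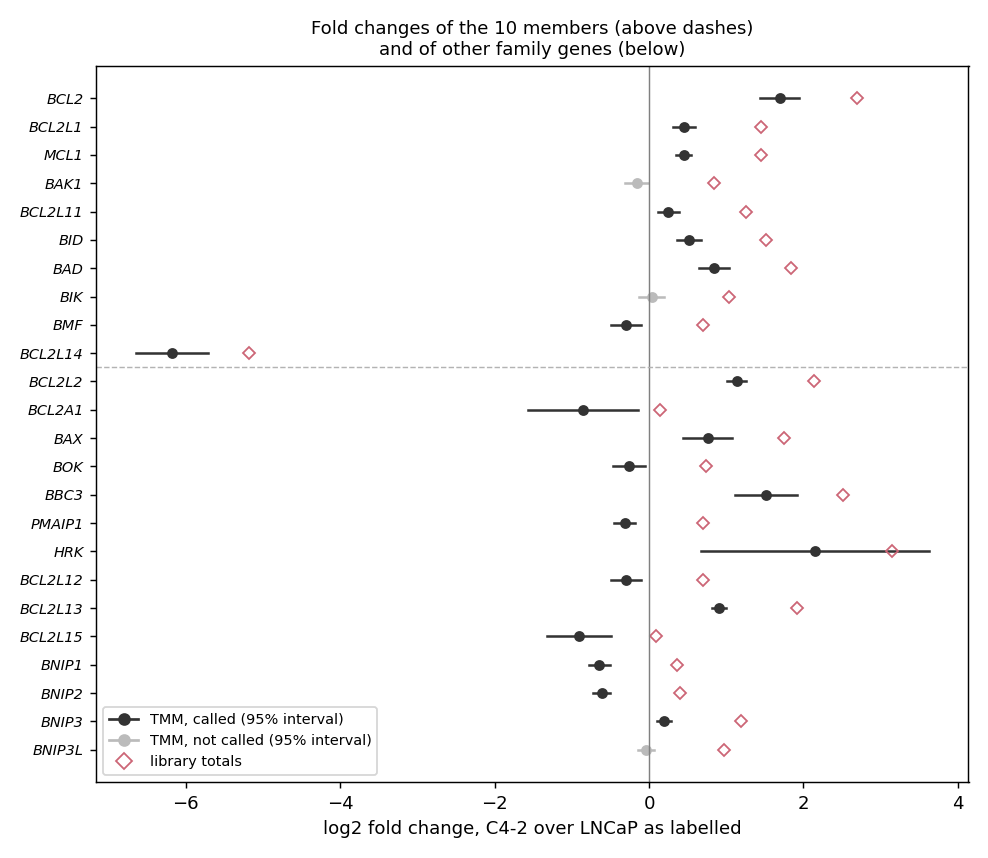
Log2 fold changes, C4-2 over LNCaP as labelled, for the 10 members (above the dashes) and 14 other family genes (below). Filled circles with bars are TMM-scaled estimates with 95% intervals (grey where the test was not passed) and open diamonds use library totals; BCL2L14 at -6.18 stands far from every other family gene on either scale.

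The starts of the genes with the largest rise and the largest fall differed in base composition, and both are shown for that reason. They are the 250 bases before the start, from RefSeq on GRCh38.p14, with each CG dinucleotide (the site of DNA methylation, the same on both strands) in capitals. For BCL2 this is chr18:63319770-63320019 on the minus strand, and for BCL2L14, which has another listed start, it is chr12:12070689-12070938 on the plus strand.
BCL2: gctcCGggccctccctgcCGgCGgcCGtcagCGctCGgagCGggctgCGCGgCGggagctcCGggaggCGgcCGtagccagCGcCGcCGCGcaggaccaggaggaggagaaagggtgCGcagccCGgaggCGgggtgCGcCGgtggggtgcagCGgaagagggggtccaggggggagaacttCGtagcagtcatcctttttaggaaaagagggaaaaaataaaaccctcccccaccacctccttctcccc
BCL2L14: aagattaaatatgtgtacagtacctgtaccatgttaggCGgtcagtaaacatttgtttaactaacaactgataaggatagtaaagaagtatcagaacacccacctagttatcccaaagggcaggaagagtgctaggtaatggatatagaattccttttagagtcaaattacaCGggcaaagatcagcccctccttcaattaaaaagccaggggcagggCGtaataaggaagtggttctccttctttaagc

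The BCL2 window held 24 CG dinucleotides, and 76.3% of the 35116 windows of the same length in the table held fewer. The BCL2L14 window held 3 (29.3% of windows held as few or fewer) and its other window held 2, against a median of 11. At least 1 CG was present in 93.9% of windows. Of the other members with an entry, BCL2L11 had 34, BAK1 had 5, BAD had 17 and 20 and BCL2L1 had 12 and 17 in the windows of their starts. BID ranged from 4 to 30 over 5 starts, and BMF had 0 and 26. The GC box GGGCGG, searched on both strands and itself containing a CG, was in at least 1 window of BAD, BAK1, BCL2L11, BID and BMF and in 42.6% of all windows. These letters were in no window of BCL2, BCL2L1 or BCL2L14. The table gave 8 of the 10 members, without MCL1 and BIK, and methylation was not measured in these libraries.

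Per unit of length, MCL1 led in every library. Deposited RPKM in LNCaP ran from MCL1 (12.2 and 14.02) through BAD (4.94 and 6.62), BIK (4.42 and 5.19), BCL2L1 (3.75 and 4.67), BAK1 (2.39 and 2.87), BID (2.00 and 2.39), BCL2L11 (1.20 and 1.27), BCL2L14 (1.09 and 1.18) and BMF (0.849 and 0.987) to BCL2 (0.099 and 0.107). Across the LNCaP libraries, BAD and BIK, and BIK and BCL2L1, overlapped, and the other neighbours did not. Within each LNCaP library all neighbours kept this order. In C4-2 the order was MCL1 (35.2 and 36.5), BAD (21.2 and 20.1), BCL2L1 (11.3 and 11.7), BIK (9.36 and 10.4), BID (6.41 and 6.15), BAK1 (4.74 and 4.69), BCL2L11 (2.97 and 2.94), BMF (1.56 and 1.42), BCL2 (0.643 and 0.695) and BCL2L14 (0.024 and 0.040), with no overlap between neighbours. BCL2L1 thus passed BIK, BID passed BAK1, and BCL2L14 fell to last place.

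Shares of summed RPKM within a library were taken first over the members alone. MCL1 gave 76.0% and 74.6% of the summed RPKM of the 3 guardians in LNCaP and 74.6% in both C4-2 libraries. BCL2L1 gave 23.4% and 24.8% against 24.0% in both, so MCL1 and BCL2L1 overlapped between the lines. BCL2 did not overlap, with 0.617% and 0.569% against 1.37% and 1.42%. MCL1 outnumbered BCL2 by 123 and 131 to 1 in LNCaP and by 54.7 and 52.5 to 1 in C4-2. Among the 5 BH3-only members, BAD went from 36.8% and 40.2% of their summed RPKM to 51.0% and 49.1%, BIK went from 33.0% and 31.5% to 22.6% and 25.3%, and BMF from 6.33% and 5.997% to 3.76% and 3.45%, each without overlap. BCL2L11 held 8.96% and 7.74% against 7.15% and 7.18%, and BID 14.9% and 14.5% against 15.5% and 15.0%, also without overlap. Lack of overlap was the usual outcome in these libraries, seen in CPM for 89.9% of all tested genes. The sum of the 3 guardian members over that of the 5 BH3-only members was 1.20 and 1.14 in LNCaP and 1.14 and 1.19 in C4-2, which overlapped. This rested on the choice of genes. With BCL2L2, BCL2A1, BCL2L10, BBC3, PMAIP1 and HRK added, a step chosen after the data were seen, it was 1.09 and 1.05 against 1.18 and 1.23, with no overlap. BCL2L2 then gave 13.2% of the guardian sum in both LNCaP libraries and 19.7% and 19.5% in C4-2. On that wider sum MCL1 had 65.3% and 63.9% against 59.6% and 59.8%, and BCL2L1 had 20.1% and 21.3% against 19.2% in both, each without overlap. These shares describe mRNA per length, not protein.

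**Figure D4:**
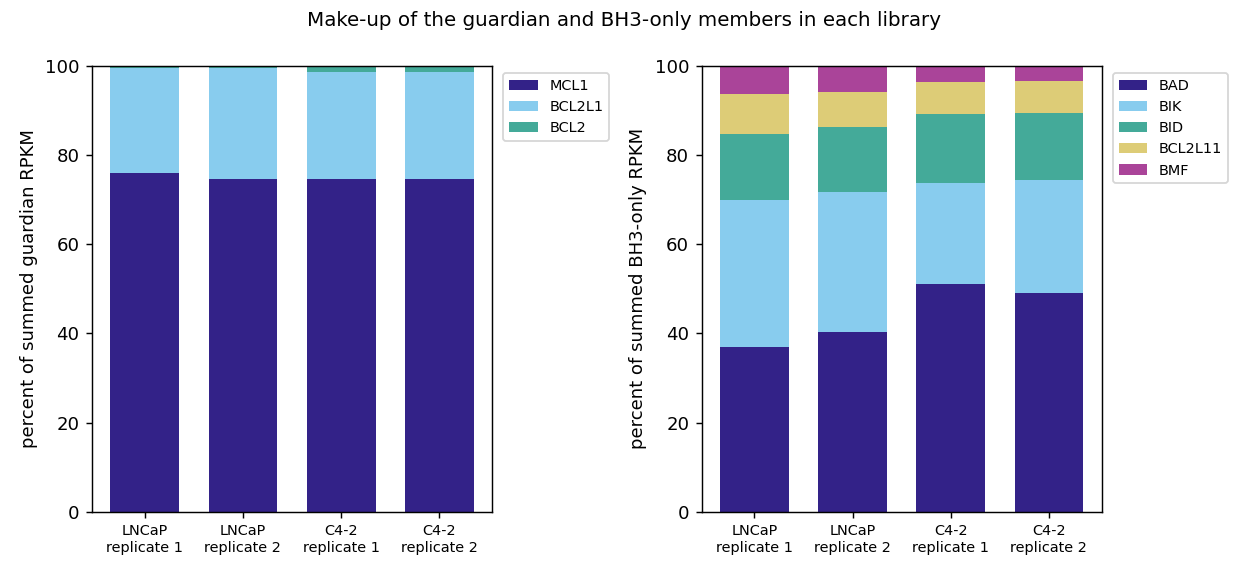
Stacked bars of the percent of summed RPKM that each gene gives within the 3 guardian members (left) and within the 5 BH3-only members (right), 1 bar per library. MCL1 fills 74.6% to 76.0% of the guardian bars in all libraries, whereas BAD grows from 36.8% and 40.2% in LNCaP to 51.0% and 49.1% in C4-2.

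Of 15 further family genes 14 could be tested. In C4-2, 6 were higher and 7 lower, beside 40.2% and 39.7% of all tested genes, with a median log2 fold change of -0.15. With library totals 12 were higher, beside 73.1% of all genes. The guardian gene BCL2L2 (BCL-W) was 2.19-fold higher (27.6 and 28.8 CPM against 62.2 and 61.7 CPM, edgeR adjusted p = 3.54e-07). BCL2A1 was low in all libraries, at 0.466 and 0.593 CPM against 0.342 and 0.237 CPM. Its call (-0.85, adjusted p = 0.0327 in edgeR) ended by DESeq2 and without LNCaP replicate 2 or C4-2 replicate 2 (adjusted p = 0.199, 0.185 and 0.173). BCL2L10 had 2 tags in LNCaP replicate 1 and none elsewhere. The effector genes went apart on the TMM scale. BAX, the partner of BAK, was 1.69-fold higher (7.79 and 11.1 CPM against 15.7 and 16.4 CPM, edgeR adjusted p = 0.00117). The BAX row counted was a transcript of 908 exonic bases that RefSeq lists as non-coding, and its LNCaP replicates lay far apart. BOK was lower at -0.26 (edgeR adjusted p = 0.0295), a call that ended without C4-2 replicate 2, and stood at 0.74 with library totals.

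On the TMM scale the p53-induced BH3-only genes also went apart. BBC3 (PUMA) rose 2.86-fold, from 1.78 and 2.67 CPM to 6.83 and 5.98 CPM (edgeR adjusted p = 6.92e-05), whereas PMAIP1 (NOXA), which binds MCL1, fell from 21.2 and 20.3 CPM to 16.7 CPM in both (log2 fold change -0.31, edgeR adjusted p = 0.00132). With library totals both stood higher in C4-2, at 2.51 for BBC3 and 0.69 for PMAIP1. HRK rested on 3 and 8 tags against 37 and 64 (2.15 ± 0.64, edgeR adjusted p = 0.0141), and without C4-2 replicate 2 it stood at 1.45 with an adjusted p of 0.058. It stood at 1.73 and 2.89 without LNCaP replicate 1 or 2 and at 2.68 without C4-2 replicate 1. Among more distant relatives, BCL2L13 and the mitophagy receptor gene BNIP3 were higher (0.91 and 0.19), and BNIP1, BNIP2, BCL2L12 and BCL2L15 were lower (-0.65, -0.61, -0.30 and -0.91), though these 4 stood above 0 with library totals. BNIP3L did not pass (-0.04, 95% interval -0.14 to 0.07). With the stricter filter BNIP3 lost its call (0.05, adjusted p = 0.251) and BNIP3L gained one (-0.17, adjusted p = 0.00908). Opposite-strand tags made up 18.1% to 49.1% of all tags at BCL2L12 and BCL2L15, against a median of 0.477% in LNCaP and 0.298% in C4-2 over tested genes. The call of BCL2L12 ended when both strands were added (adjusted p = 0.151), as did that of BOK (0.0738).

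**Figure D5:**
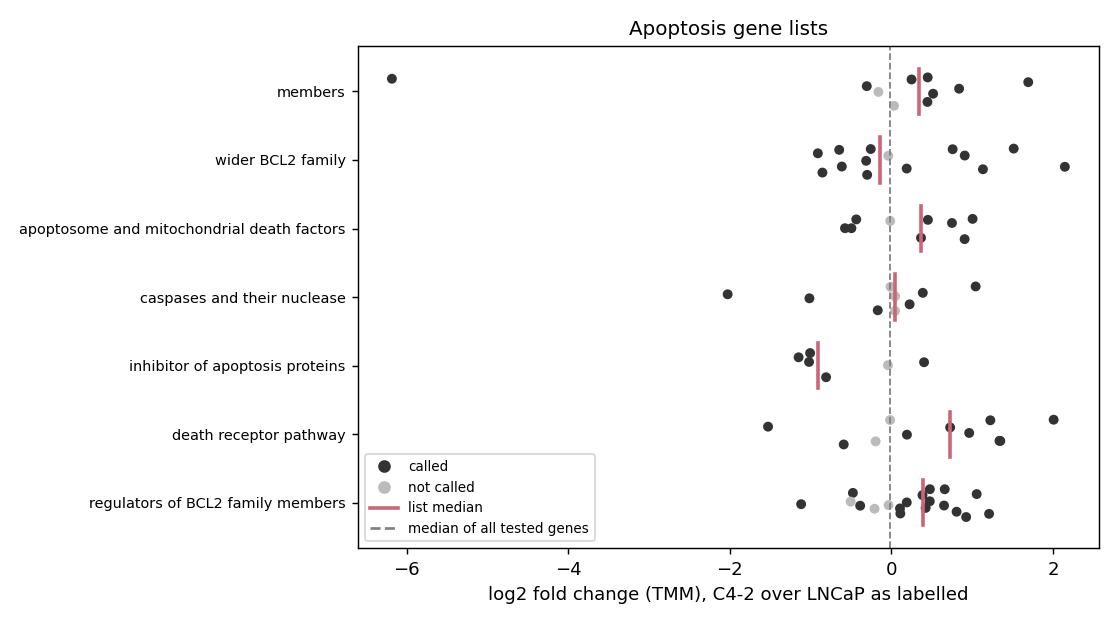
Log2 fold changes (TMM scale, C4-2 over LNCaP as labelled) of the genes in 7 apoptosis lists, 1 dot per gene, in dark where the test was passed; vertical jitter has no meaning. The red bars are list medians, from -0.91 for inhibitors of apoptosis to 0.73 for the death receptor pathway, and the dashed line is the median of all genes, -0.01.

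Genes that act beside and downstream of the family were described from lists, whose counts stand beside the 40.2% higher and 39.7% lower of all tested genes (73.1% and 10.5% with library totals). Of 9 mitochondrial death factors, 5 were higher and 3 lower (median 0.37), and the 8 called stood beside 80.0% of all genes called. CYCS, the gene for cytochrome c, and APAF1, the scaffold it binds to form the apoptosome, were lower (-0.57 and -0.49), and the nuclease gene ENDOG, the protease gene HTRA2 and the channel gene VDAC1 were higher (2.01-fold, 1.87-fold and 1.37-fold). Opposite-strand tags made up 13.1% and 16.4% of all tags at ENDOG in LNCaP and C4-2, and 11.6% and 15.1% at HTRA2. With library totals CYCS and APAF1 stood at 0.43 and 0.51. Of 9 caspase and nuclease genes 3 were higher and 3 lower (median 0.05), beside the same 40.2% and 39.7%. CASP9, the caspase of the apoptosome, was 2.06-fold higher and CASP8, which cleaves BID, 1.31-fold higher, whereas CASP6 and CASP10 were lower (-1.01 and -2.03), and DFFA was higher at 0.23. CASP6 did not pass with library totals (-0.01), nor DFFA with the stricter filter (0.09, adjusted p = 0.185). Among 6 tested inhibitors of apoptosis 4 were lower and 1 higher (median -0.91), beside 39.7% and 40.2% of all genes. BIRC5 (survivin) fell from 178 and 182 CPM to 80.5 and 81.9 CPM and BIRC3 from 34.1 and 32.5 CPM to 16.5 and 16.3 CPM, while BIRC6 was higher (0.40). With library totals 2 of these 6 were higher, and BIRC5 and BIRC3 did not pass (-0.14 and -0.01).

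In the death receptor pathway, which feeds into BID, 7 of 11 tested genes were higher and 2 lower (median 0.73), beside 40.2% and 39.7% of all genes. FASLG had no tag. The adaptor gene TRADD and the decoy receptor gene TNFRSF10C were 2.55-fold and 4.02-fold higher, and the TRAIL receptor gene TNFRSF10B was higher at 0.19 (0.06, adjusted p = 0.271, with the stricter filter). The TRAIL gene TNFSF10 was lower (-1.53), as was CFLAR, a caspase-8 inhibitor (-0.59, or 0.42 with library totals), where 19.5% and 20.3% of tags lay on the opposite strand. Among 19 regulators of members 13 were higher and 3 lower (median 0.39), beside 40.2% and 39.7%, and 17 were higher with library totals, beside 73.1%. FOXO3, a factor that can drive BCL2L11 transcription, was 2.08-fold higher (59.4 and 57.8 CPM against 122 CPM in both). The dynein light chain genes moved in opposite directions: DYNLL1, whose protein tethers BIM, fell from 328 and 331 CPM to 152 CPM in both, and DYNLL2, whose protein tethers BMF, rose from 38.0 and 36.9 CPM to 87.5 and 85.7 CPM. PIM1, a kinase gene whose product phosphorylates BAD, was lower (-0.48). With library totals DYNLL2 and FOXO3 stayed positive (2.22 and 2.06), DYNLL1 did not pass (-0.11) and PIM1 stood at 0.53.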

How the data were processed

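The authors deposited a tag count and an RPKM value per genome strand for 41351 RefSeq transcript rows in each of 4 libraries, per the file headers. Reads were aligned to hg19 with TopHat2 2.0.6 and Bowtie, per the submitters' processing notes; the tag counter is not given in the sources used here. Symbols came from a RefSeq table (GRCh38.p14, names only) for 38974 of 40304 accessions, and rows without a symbol (2.06% to 2.15% of sense tags) stayed out. Sense tags of the row with the highest mean share per symbol were tested with edgeR 4.0.16 (R 4.3.3): filterByExpr, TMM, quasi-likelihood test, cell line as the only term, Benjamini-Hochberg over 15975 genes. SE is the fold change over the root of F. The test was also run on simulated counts with a common spread for all genes and few genes changed. That setting is unlike these data, so the run cannot vouch for the calls above. Library totals and exonic lengths were recovered from tag count over deposited RPKM, through rows with a single exon. Replicates differed by more than sampling noise (chi-square per degree of freedom 25.6 and 12.7).

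Members and lists were chosen with earlier results of these data known. Text names all members, detected family genes and, per list, the 2 highest and 2 lowest called genes and that with the highest mean RPKM. Sequences came from GRCh37 and RefSeq (GRCh38.p14). In all, 13 alternatives were run, including DESeq2 1.42.0, and 1 more was added after the data were seen. RPKM of different libraries were compared only as ratios or shares within a library.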

Additional observations from a re-analysis of the deposited data

How the results depend on the processing

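A change of direction was counted only where the main or the other fit passed. So counted, 122 of 130 member fold changes kept direction and side of the threshold over the 13 other settings. The rest were 2 that turned, 2 that lost and 4 that gained a call, all named in the report. BIK also changed direction, uncounted, at -0.10 with the stricter filter and -0.01 without C4-2 replicate 2. Fold changes of the other named genes, counted in the same way, kept direction and side of the threshold in 435 of 462 cases. Library totals in place of TMM gave the large shifts: 11626 genes were higher and 1664 lower. There, members lower numbered 1. Higher and lower counts were 12 and 0 for further family genes, 9 and 0 for mitochondrial death factors, 7 and 1 for caspases and 2 and 0 for inhibitors of apoptosis. In the death receptor pathway 1 was lower and among regulators 0. The counts of 0 are from edgeR; at an unadjusted p under 0.05 they were also 0. On that scale BAK1 stood at 0.84, BMF at 0.70, BCL2A1 at 0.14, BOK at 0.74, PMAIP1 at 0.69, BCL2L12 at 0.70, BCL2L15 at 0.0895, BNIP1 at 0.36, BNIP2 at 0.40, BNIP3L at 0.97, CYCS at 0.43, APAF1 at 0.51, CFLAR at 0.42 and PIM1 at 0.53. The 10 members included 3 lower ones with DESeq2 size factors and with a stricter filter (CPM of at least 5 in 2 libraries), each time through BAK1, and under that filter 5 regulators were lower. Leaving out 1 library gave 1 to 3 lower members, the lowest without C4-2 replicate 2 (BMF lost) and the highest without LNCaP replicate 1 (BAK1 gained); an arm of 1 library was assumed to vary like the other. With library totals, and without either LNCaP library, edgeR gave all genes a shared spread in place of their own. A replicate block kept 6 members higher and 2 lower. Same-numbered libraries did not deviate together (r = -0.03 across genes), so the numbers were not taken as pairs. The causes of these shifts were not tested. With the other listed guardian and BH3-only genes added, chosen after the data were seen, the guardian to BH3-only ratio differed by 0.13 between the lines (C4-2 minus LNCaP) in place of -0.0050. Low counts limit BCL2L14 in C4-2 (11 and 13 tags), HRK and BCL2A1, among others.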
